A study of Mus musculus with 4 samples.

Results

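The miR-221 and miR-222 cluster yields 4 mature miRNAs, the 3p and 5p arms of each hairpin, and all 4 were chosen by name from the 1038 mature miRNAs listed for mouse medial prefrontal cortex. Their levels were compared between control mice and mice with depression-like behaviour after chronic unpredictable mild stress (CUMS), with 2 small RNA libraries in each group. All mice were male, unmodified animals that entered the study at postnatal day 21, of the strain given as C57BL/6 in the labels and C57BL/6J in the study's methods. CUMS mice lived for 3 weeks under social isolation and, chosen at random from day to day, stressors such as restraint, tilted or damp cages, noise and disturbed light, and control mice lived without them. Only CUMS mice that changed in all of the sucrose preference, Y-maze and forced swimming tests were taken, so the group holds vulnerable animals and not every stressed animal. Cortices of both groups were dissected 24 hours after the tests. RNA was isolated mouse by mouse, and whether a library holds a single mouse is not given in the sources used here.

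A miRNA is cut from a hairpin precursor, and either arm of the hairpin can be loaded into an Argonaute protein to repress mRNAs that match its seed, which is bases 2 to 8. miR-221 and miR-222 are made from neighbouring hairpins and share a seed, so they are treated as a single family in target repression. They are known for repressing the cell cycle inhibitor Cdkn1b and the receptor tyrosine kinase Kit. They are abundant in endothelium and vascular smooth muscle and are induced by growth factor signalling in several cell types, neuron-like cells included.

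The mature sequences are shown because they make clear which arms act as a family and which do not. They are RefSeq sequences on GRCm38.p6, read 5′ to 3′, with the seed in capitals.
miR-221-3p: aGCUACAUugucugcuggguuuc
miR-222-3p: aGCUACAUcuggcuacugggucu
miR-221-5p: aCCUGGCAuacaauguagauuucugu
The 3p arms share their first 8 bases, and after that stretch they differ, with 12 differences over 23 positions. The 5p arm of miR-221 has another seed. RefSeq gives the same seed to 1 further mouse miRNA, miR-1928, which was not analysed here. The longest run of bases that the hairpins share is 9 nt, and the study counted reads of 18 to 25 nt that matched a precursor without mismatch, so no counted read can match both hairpins. The listed miR-221-5p is 26 nt long, 1 nt more than the longest read counted, so full-length copies of this arm lay outside the counted lengths and reads of it are shorter forms.

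The hairpins lie on the minus strand of the X chromosome. Mir221 is at chrX:19146294-19146388 and Mir222 at chrX:19146893-19146971, with 504 nt between them. The mature miR-221-3p is at chrX:19146307-19146329, miR-221-5p at chrX:19146344-19146369 and miR-222-3p at chrX:19146901-19146923. In GENCODE M21 on GRCm38 the cluster is intergenic, with 0 other genes overlapping its span of 678 nt. The nearest gene on its upstream side, the noncoding Gm14636, is on the same strand and ends 10009 nt away. RefSeq lists 0 other miRNA hairpins within 100 kb.

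The mRNAs of this study were not analysed here, but sites for the shared seed show what the 3p arms can pair with. The complement of the seed, ATGTAGC, was searched on the sense strand of the longest annotated 3′ UTR of genes known from textbooks as targets. It was found 11 times in all, in Cdkn1b, Cdkn1c, Kit, Bbc3, Bcl2l11, Fos, Timp3 and Ets1, of which Kit, Bcl2l11 and Ets1 held 2 matches each. Icam1, an endothelial adhesion receptor, had 0 matches. Of 21020 genes with an annotated 3′ UTR, 9.45% held the same letters. Targets become known through seed matches, and several of these genes have long 3′ UTRs, so no share of the list was set against that of all genes. The sites of the best known targets, the Fos site of an activity-regulated transcription factor and the Bbc3 site of a pro-apoptotic gene are given with the match in capitals.
Cdkn1b: tctaaaagcattggATGTAGCat
Kit first site: atgatgggagatatATGTAGCaa
Kit second site: ttgtaaatattgaaATGTAGCaa
Fos: cacctcttccagagATGTAGCaa
Bbc3: actttttctgcaccATGTAGCat
The Cdkn1b match is at chr6:134924431-134924437, the Kit matches are at chr5:75654992-75654998 and chr5:75656523-75656529, the Fos match is at chr12:85476661-85476667 and the Bbc3 match is at chr7:16317331-16317337, all in 3′ UTRs on the plus strand. Each of these matches is followed by an A, as are 8 of the 11. A match is a description of sequence and not a measured binding site.

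The reads of single libraries were recovered from the deposited group means, as described with the processing. The libraries held from 9589323 to 10783592 reads on known miRNAs. They are called a and b within each group, letters that carry no replicate number. Control library b stood apart from the others. It held 93217 CPM (reads scaled to the miRNA total of the library) of a list of 8 epithelial and sensory miRNAs, the miR-183 and miR-200 clusters, against 393 to 721 CPM in the other 3 libraries. The neuronal list (miR-124-3p, both miR-9 arms, miR-128-3p and miR-137-3p) had 64754 to 80710 CPM in control and 79693 to 92301 CPM in CUMS, so the libraries carry the miRNAs of neural tissue. With 2 libraries against 2, a two-sided exact permutation test cannot give a p below 0.333.

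The most abundant arm by far was mmu-miR-222-3p. Its reads numbered 51269 (library a) and 41166 (library b) for control mice, and 49783 (a) and 39308 (b) for CUMS mice. The same counts scaled to each library give control levels of 4867 and 3817 CPM, and CUMS levels of 4774 and 4099 CPM. Both CUMS libraries lay between the control libraries. It ranked 31 of the 1038 miRNAs by mean normalized count, that is reads divided by the size factor of the library.

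The same seed is carried by mmu-miR-221-3p, whose reads numbered 9822 (a) and 6625 (b) for control mice, and 8591 (a) and 10070 (b) for CUMS mice. Control levels were 932 and 614 CPM, and CUMS levels 824 and 1050 CPM. The groups overlapped, with the lowest level in control library b and the highest in CUMS library b. It ranked 78 of 1038.

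The opposite arm of that hairpin, mmu-miR-221-5p, was read 3895 (a) and 5288 (b) times for control mice, and 5260 (a) and 5540 (b) times for CUMS mice. Control levels were 370 and 490 CPM, and CUMS levels 504 and 578 CPM. On the CPM scale the groups did not overlap, with CUMS higher, but after division by size factors CUMS library a, at 4953, was below control library b, at 5286. Control library a had the lowest level on either scale. The arm ranked 97 of 1038.

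The least abundant arm, mmu-miR-222-5p, was read 916 (a) and 875 (b) times for control mice, and 964 (a) and 1014 (b) times for CUMS mice. Control levels were 87.0 and 81.1 CPM, and CUMS levels 92.4 and 106 CPM. The groups did not overlap and CUMS was higher, with a narrow gap of 896 to 908 normalized counts between control library a and CUMS library a. The arm ranked 172 of 1038.

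**Figure D1:**
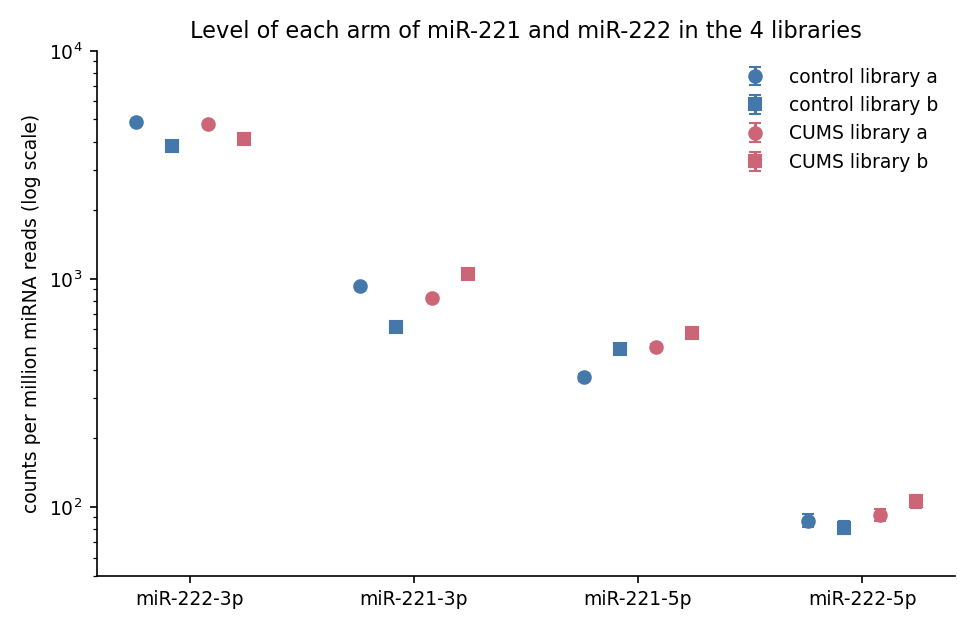
Level of each arm in CPM of miRNA reads (log axis), with 1 point per library, blue for control and red for CUMS, circles for library a and squares for library b. Bars are 95% Wilson intervals of the count, mostly smaller than the points; the arms keep the order miR-222-3p, miR-221-3p, miR-221-5p, miR-222-5p in every library.

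The order of the arms was the same in all 4 libraries, and the normalized counts of neighbouring arms did not overlap. The lowest miR-221-3p value was 6622 and the highest miR-221-5p value was 5870. A miRNA is read whole, so no correction for length was needed, but the levels of different sequences also carry ligation preferences that were not measured. Together the 4 arms took 0.626% and 0.50% of the miRNA reads for control mice, and 0.619% and 0.583% for CUMS mice, and the lowest share was that of control library b. In this bulk tissue, fewer cells of a type and less RNA per cell cannot be told apart.

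Counting error was small beside the spread between libraries for both 3p arms and miR-221-5p, but not for miR-222-5p. For miR-221-3p the 95% Wilson interval was 914 to 951 CPM in control library a and 600 to 629 CPM in control library b. For miR-222-5p it was 81.5 to 92.8 CPM in control library a and 75.9 to 86.7 CPM in control library b, which overlap. In CUMS library a it was 86.8 to 98.5 CPM, so the narrow gap to control library a lay within counting error. These intervals cover counting error only, since the reads carry no molecular identifiers. The control libraries differed by 1.45-fold in normalized miR-221-3p. Of the 208 miRNAs whose means reached 500 in both groups, 94.7% had a smaller gap between the control libraries, and the median gap was 1.11-fold. For miR-221-5p the control libraries differed by 1.39-fold in the opposite direction, and 90.4% of the 208 had a smaller gap. The gap was 1.22-fold for miR-222-3p and 1.02-fold for miR-222-5p. The CUMS libraries differed by 1.32-fold for miR-221-3p, and by 1.13-fold to 1.19-fold for the other arms.

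The question of the group comparison was whether the cluster differs between depression-like and control mice, and no arm passed a test. The authors' mean of miR-222-3p was 45649 for control mice and 44261 for CUMS mice, so the log2 ratio of CUMS over control was -0.045 (SD within groups 0.17 on the log2 scale, n = 2 and 2). For miR-221-3p the means were 8115 and 9379, a log2 ratio of 0.21 (SD 0.33). For miR-221-5p they were 4548 and 5411, a log2 ratio of 0.25 (SD 0.27). For miR-222-5p they were 885 and 991, a log2 ratio of 0.16 (SD 0.12). The difference was smaller than the spread between libraries for the first 3 arms and larger for miR-222-5p, whose exact two-sided permutation p of 0.333 is the smallest that the design allows.

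None of the 4 arms passed a fold of 1.5, the size criterion of the study, which 25.6% of 628 miRNAs passed in either direction once those with both group means under 5 were set aside. Most of these 161 miRNAs had low means, and 29 remained at a group mean of at least 50, which more than 369 miRNAs reached. All 4 arms lay far above that mean, so 25.6% is not the share at their level. The CUMS libraries lay outside the control libraries for 1 of the 4 arms, miR-222-5p, against 33.8% of the 719 miRNAs that reached 5 reads in any library. By direction, CUMS was the higher group for 16.7% of the 719, as for miR-222-5p, and the lower group for 17.1%. On the recovered reads, edgeR's quasi-likelihood test gave Benjamini-Hochberg adjusted p-values of 0.954 for miR-222-3p, 0.931 for miR-221-3p, 0.925 for miR-221-5p and 0.931 for miR-222-5p. This test called 0 of the 719 miRNAs at an adjusted p under 0.05 (0.0%), with 30 (4.17%) at an unadjusted p under 0.05. DESeq2 called 0 as well (0.0%), with 24 (3.34%) at an unadjusted p under 0.05.

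The intervals of the differences remained wide. The 95% Wald interval of DESeq2 for CUMS over control ran from 0.750-fold to 1.24-fold for miR-222-3p and from 0.846-fold to 1.57-fold for miR-221-3p. It ran from 0.887-fold to 1.58-fold for miR-221-5p and from 0.836-fold to 1.49-fold for miR-222-5p. A change of 1.5-fold upwards therefore lay within the interval of both miR-221 arms and outside that of miR-222-3p and, narrowly, miR-222-5p.

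**Figure D2:**
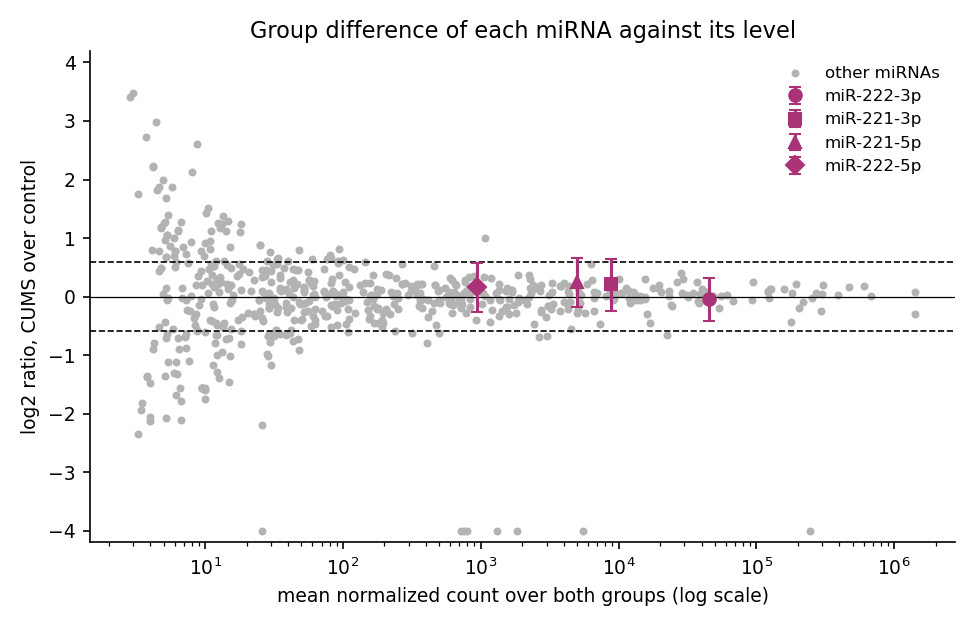
Log2 ratio of the group means, CUMS over control, against the mean normalized count (log axis), with grey points for the other miRNAs that reach a group mean of 5 and dashed lines at a fold of 1.5. The 4 arms lie between the dashed lines, with bars for the 95% Wald interval of DESeq2; 8 miRNAs beyond the axis are drawn at its lower edge and 5 with a group at 0 are not drawn.

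Single libraries decided the direction for the 3p arms. The log2 ratio of miR-221-3p was 0.50 without control library a, -0.035 without control library b and -0.0046 without CUMS library b. That of miR-222-3p was 0.11 without control library a and 0.038 without CUMS library b, and with scaling to the total of miRNA reads it was 0.031. The ratio of miR-221-5p stayed positive but went from 0.034 without control library a to 0.51 without control library b. That of miR-222-5p was 0.036 without CUMS library b.

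Ratios between arms of the same library need no scaling between libraries, and they show how evenly the cluster was represented. Reads of miR-222-3p exceeded those of miR-221-3p by 5.22-fold and 6.21-fold in control and by 5.79-fold and 3.90-fold in CUMS. The groups overlapped, and CUMS library b was the lowest. The log2 ratio of miR-221-3p over miR-222-3p was higher in CUMS by 0.26 (SD within groups 0.31, n = 2 and 2, exact two-sided permutation p = 0.667). Without CUMS library b the difference was -0.025.

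The balance of arms was very unlike in the 2 hairpins. In the Mir222 hairpin the 3p arm exceeded the 5p arm by 56.0-fold and 47.0-fold in control and by 51.6-fold and 38.8-fold in CUMS. In the Mir221 hairpin the 3p arm exceeded the 5p arm by 2.52-fold and 1.25-fold in control and by 1.63-fold and 1.82-fold in CUMS. Full-length miR-221-5p, at 26 nt, was too long to be counted. The Mir221 balance here and in the ranking of hairpins below therefore rests on its shorter forms only. Neither balance differed between the groups beyond the spread between libraries. The difference in the log2 ratio of 3p over 5p, CUMS minus control, was -0.045 for miR-221 (SD 0.51, exact two-sided permutation p = 1.0) and -0.20 for miR-222 (SD 0.24, exact two-sided permutation p = 0.667). The difference for miR-221 was 0.46 without control library a and 0.032 without CUMS library a, and that for miR-222 was 0.0092 without CUMS library b.

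**Figure D3:**
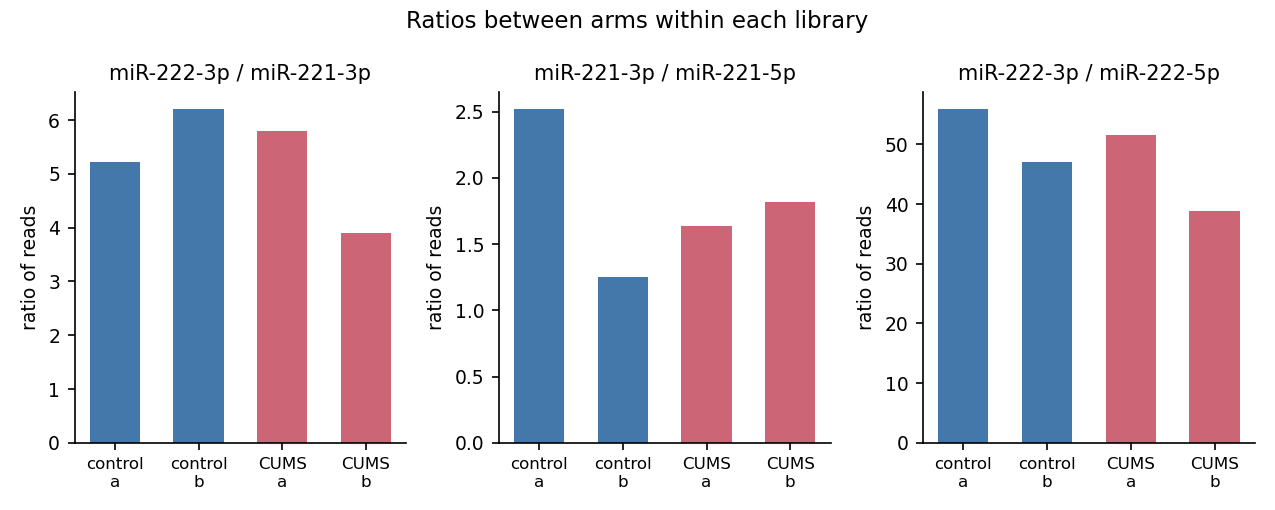
Ratio of reads between arms within each library, with control in blue and CUMS in red and axes that start at 0. The ratio of the miR-222 arms lies between 38.8, in CUMS library b, and 56.0, in control library a. That of the miR-221 arms lies between 1.25 and 2.52, both in control libraries.

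The arms of 74 hairpins had at least 50 reads each in every library, and the 3p arm was the higher one in 35 of them. The median excess of the higher over the lower arm was 5.09-fold. The Mir222 hairpin, at 47.9-fold over the 4 libraries, was the 18th most unequal of the 74, and the Mir221 hairpin, at 1.75-fold, was the 62nd. The 3p to 5p ratio of miR-221 moved by 2.01-fold between its lowest and highest library, the 6th largest movement of the 74. That of miR-222 moved by 1.44-fold, near the median of 1.38-fold, and the middle 50 percent of hairpins moved by 1.21-fold to 1.66-fold. The lowest and highest ratios of miR-221 were both in control libraries, at 2.52 in library a and 1.25 in library b. Of these libraries, a had the higher level of miR-221-3p and b the higher level of miR-221-5p.

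The arms therefore did not vary together over the libraries. In control library a miR-222-3p and miR-221-3p were above their own means and both 5p arms were below. In CUMS library b miR-221-3p and both 5p arms were above their means and miR-222-3p was below.

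**Figure D4:**
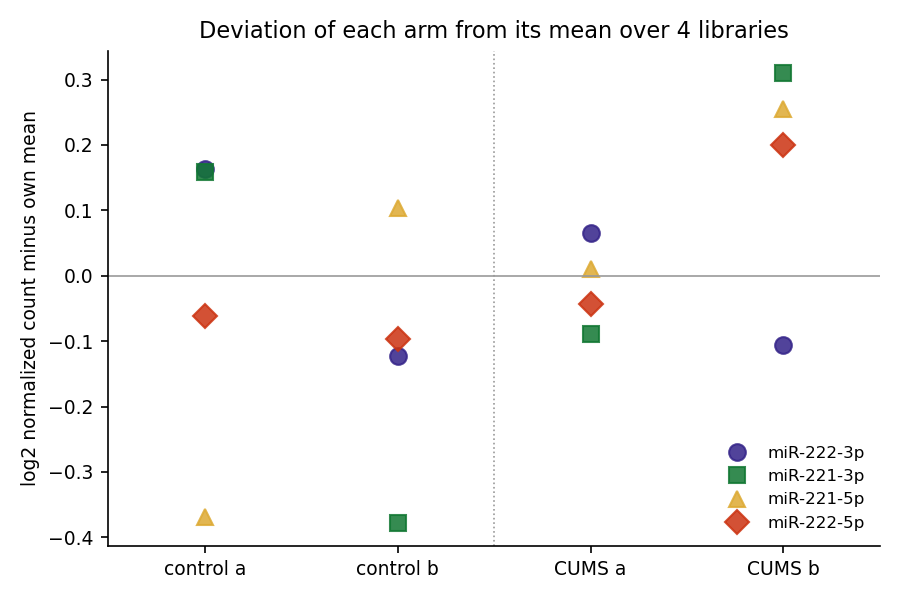
Log2 normalized count of each arm minus its own mean over the 4 libraries, with control libraries left and CUMS libraries right of the dotted line. The points of the 4 arms lie on both sides of 0 in every library, and miR-221-3p is lowest in control library b and highest in CUMS library b.

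The miRNAs whose pattern over the 4 libraries came closest to an arm were found by the largest absolute difference in centred log2 normalized counts, among 369 other miRNAs that reached a group mean of 50 and had reads in every library. With 4 libraries such closeness is only a description. For miR-221-3p the closest was miR-137-3p, with a largest difference of 0.10, followed by miR-29b-3p, let-7b-5p, miR-135a-5p and miR-379-5p. The reads of miR-137-3p numbered 1064 and 705 for control mice, and 976 and 1008 for CUMS mice, lowest in control library b as for miR-221-3p. For miR-222-3p the closest were miR-3086-5p, miR-676-5p, miR-136-3p, miR-30c-5p and miR-3078-5p, with largest differences from 0.08 to 0.10. The cluster partners were further away. The nearest of them to miR-221-3p was miR-222-5p, at place 69 of 369 with a largest difference of 0.28. miR-222-3p stood at place 154 of 369 in closeness to miR-221-3p, with a largest difference of 0.41, and miR-221-5p stood at place 237.

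Markers of other cells were measured beside the arms. The endothelial and mural list (both miR-126a arms, miR-143-3p and both miR-145a arms) was found in full, 5 of 5, and its summed level was 30264 and 20754 CPM for control mice, and 22242 and 30388 CPM for CUMS mice. These sums were high in the same libraries as miR-221-3p, control library a and CUMS library b, and most of them came from miR-143-3p, with 304108 and 210187 control reads, and 217205 and 276699 CUMS reads. The same order of libraries as for miR-221-3p was found for miR-126a-5p, an endothelial miRNA, with 12148 and 10890 control reads, and 11985 and 12434 CUMS reads. It was also found for miR-145a-5p of smooth muscle, with 154 and 137 control reads, and 151 and 218 CUMS reads. Other members were ordered differently, miR-145a-3p with 530 and 724 control reads, and 749 and 545 CUMS reads, and the endothelial miR-126a-3p with 1850 and 1869 control reads, and 1843 and 1500 CUMS reads. The largest member, miR-143-3p, was ordered differently too, with its most reads in control library a. The 93217 CPM of epithelial and sensory miRNAs in control library b lower the CPM of its other miRNAs. The order of summed CPM can therefore depend on the scaling. The order of miR-221-3p was not particular to vascular markers. The sum of the neuronal list had it as well, with 80710 and 64754 CPM for control mice, and 79693 and 92301 CPM for CUMS mice. Most of that sum came from miR-9-5p, which had the order, with 631128 and 501927 control reads, and 579916 and 689083 CUMS reads. The order was also that of miR-137-3p. Its member miR-124-3p did not have it, with 26501 and 23152 control reads, and 31217 and 33239 CUMS reads. Nor did miR-128-3p, with 188860 and 169840 control reads, and 215452 and 159595 CUMS reads. Neither did miR-9-3p, with 2621 and 2657 control reads, and 3446 and 2180 CUMS reads. The part of vascular or neuronal cells in the level of miR-221-3p was not tested. The microglia and leukocyte list, 5 of 5 found, summed to 396 and 443 CPM in control and 549 and 386 CPM in CUMS, and the oligodendrocyte list, 3 of 3 found, to 765 and 776 CPM in control and 628 and 722 CPM in CUMS. The red cell list, 3 of 3 found, summed to 11622 and 10684 CPM in control and 11671 and 13310 CPM in CUMS, and the choroid plexus list, 2 of 2 found, to 1644 and 2042 CPM in control and 1625 and 1243 CPM in CUMS. Most of the red cell sum came from miR-486a-5p, and most of the microglia and leukocyte sum from miR-150-5p. In these lists miR-144-3p passed a fold of 1.5 upwards (1.54-fold) and miR-223-3p downwards (0.63-fold), and the groups overlapped for both. The muscle list, 2 of 3 found, reached at most 32.3 CPM, and the hepatic miR-122-5p was at 0 reads in the control libraries and at 1 read in each CUMS library.

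miR-221 and miR-222 are among the miRNAs that respond to growth factors. For comparison, 9 other miRNAs that respond to growth factors or neuronal activity were listed. Of the 8 that reached a group mean of 5, 0 were past a fold of 1.5 upwards and 1 downwards, against 11.9% and 13.7% of the 628 miRNAs, and edgeR called 0 at an adjusted p under 0.05. Their median log2 ratio was 0.062, against 0.021 for all 628 miRNAs. The groups did not overlap for 5 of the 8, the 4 arms of miR-132 and miR-212, with CUMS above control, and miR-134-5p, with CUMS below, against 223 of the 628. Arms of the same hairpin are not independent measurements. miR-132-3p, which is induced by CREB in active neurons, was read 6002 and 5727 times for control mice, and 7481 and 6670 times for CUMS mice, with a log2 ratio of 0.28 (edgeR adjusted p = 0.849). The member past the fold was miR-21a-3p, the minor arm of a growth-associated miRNA, with 62 and 40 control reads, and 45 and 22 CUMS reads.

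RefSeq places 81 other miRNAs of the table on the X chromosome, none within 100 kb of the cluster. Of the 49 that reached a group mean of 5, 14 had a higher mean in CUMS and 35 a lower one, with 7 past a fold of 1.5 upwards and 12 downwards. Of all 628 miRNAs, 331 had a higher mean in CUMS and 297 a lower one, with 75 (11.9%) past the fold upwards and 86 (13.7%) downwards. Their median log2 ratio was -0.23, against 0.19 for the 4 arms of the cluster and 0.021 for all miRNAs. Many of these miRNAs come from shared hairpins and clusters, so they are not independent measurements. The edgeR test called 0 of the 49.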

How the data were processed

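Small RNA of medial prefrontal cortex was sequenced in 2 control and 2 CUMS libraries. The authors removed adaptor, low-quality and other noncoding RNA reads, matched reads of 18 to 25 nt to miRBase precursors without mismatch and with at least 16 nt on the mature miRNA, and compared groups with DESeq. The submitters' processing notes name Bowtie, DESeq and mm10, and their versions for the small RNA reads are not given in the sources used here. The deposited signal is, for each group, an average over its libraries of reads that the authors divided by size factors. The columns of their own comparison (overall mean, fold, log2 fold, p and adjusted p) were not used. The columns were taken as control and CUMS because the paper prints these means under those names.

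Each deposited value was solved for the reads of both libraries, each library having its own value of 1 read. Of the 1038 values of each group, 100% were solved by whole numbers within a relative residual of 1e-09. For 2 control values another pair of whole numbers came within 10 times the residual. The recovery and the fits were tested on simulated data. Size factors computed anew from these reads by median of ratios equalled the solved ones, 1.02 and 1.00 for control mice, and 1.06 and 0.944 for CUMS mice. A floor of 3 reads is 0.278 to 0.313 CPM.

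The main value is the log2 ratio of the group means. edgeR 4.0.16 (quasi-likelihood, TMM, at least 5 reads in a library) and DESeq2 1.42.0 (Wald) in R 4.3.3 were run on recovered reads with group as factor. Other values came from Python 3.11.15, numpy 2.4.6, pandas 2.3.3 and scipy 1.17.1. SDs are pooled within groups on the log2 scale. edgeR called 0 miRNAs. RefSeq sequences on GRCm38.p6 were matched by name for 884 of the 1038 miRNAs and 3 of the 4 arms, and 3′ UTRs came from GENCODE M21, whose GRCm38 is the mm10 build. The alternatives were other scalings and filters, 1 added to means or reads, and leaving out each library. The 4 arms, the lists and the likeness rule (5 closest miRNAs for each 3p arm) were chosen with earlier results of these data known. A gene of the target list is not reported here.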

Additional observations from a re-analysis of the deposited data

How the results depend on the processing

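No paired analysis was possible because the deposited columns hold group means and the recovered libraries carry no replicate number. Under 7 other scalings, filters and models, each arm moved by less than its SD between libraries. The log2 ratio ranged from 0.17 to 0.28 for miR-221-3p, from 0.21 to 0.33 for miR-221-5p, from -0.085 to 0.031 for miR-222-3p and from 0.12 to 0.24 for miR-222-5p. Scaling to total miRNA reads moved the ratios of abundant miRNAs by a median of 0.077, and without the miR-183 and miR-200 clusters by 0.0072.

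With each library left out, the log2 ratio ranged from -0.035 to 0.50 for miR-221-3p, from 0.034 to 0.51 for miR-221-5p, from -0.18 to 0.11 for miR-222-3p and from 0.036 to 0.28 for miR-222-5p. The difference between groups in the log2 ratio of miR-221-3p over miR-222-3p ranged from -0.025 to 0.54, that of miR-221-3p over miR-221-5p from -0.55 to 0.46 and that of miR-222-3p over miR-222-5p from -0.40 to 0.0092. The miRNAs past a fold of 1.5 numbered 161, with 503 without a filter on low means, 29 at a mean of at least 50 and 176 to 215 with a library left out. Many miRNAs with few reads enter without the filter. edgeR called from 0 to 12 miRNAs with a library left out, the 12 without control library a, and the cause was not tested. The adjusted p of the 4 arms was from 0.683 to 0.999 in all 8 fits. Where a library is left out, the lone library of its group is assumed to vary like the other group. Without control library a, that lone library was control library b, which stood apart in its epithelial and sensory miRNAs.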
